A study of Homo sapiens with 9 samples.

Results

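The 10 human alpha- and beta-like globin genes were HBZ, HBM, HBA2, HBA1 and HBQ1 on chromosome 16 and HBE1, HBG2, HBG1, HBD and HBB on chromosome 11. They were chosen by name, as the protein-coding members of the 2 globin clusters, and all 10 had read pairs, among 21597 genes with a read pair. The cells were K562, an established erythroleukaemia line from a chronic myeloid leukaemia, cultured for 24 h with 1 µM imatinib, an inhibitor of the BCR-ABL1 tyrosine kinase, or with DMSO, its solvent. TIF-Seq2 joins the capped 5′ end and the polyadenylated 3′ end of 1 RNA molecule in 1 read pair, and each group had 2 libraries. The study's methods describe the replicates as biological, and the p-values measure the spread between these 4 libraries. A read pair was counted for a gene when both ends lay on its strand within 1 kb of its Gencode v44 body, and a pair inside several bodies went to the gene with the nearest transcript ends.

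Haemoglobin is built from alpha-like and beta-like chains, each around a haem group. The alpha-like cluster runs, in the direction of transcription, from the embryonic HBZ through HBM to the fetal and adult pair HBA2 and HBA1 and then HBQ1. The beta-like cluster runs from the embryonic HBE1 through the fetal pair HBG2 and HBG1 to the minor adult gene HBD and the major adult gene HBB, and during development expression moves along each cluster. K562 is known for making embryonic and fetal rather than adult beta-like chains. Both clusters hold near-identical neighbours, HBA2 with HBA1 and HBG2 with HBG1, and the study kept only uniquely mapped pairs.

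The 4 libraries held 3695520 and 5135829 read pairs for DMSO and 4263670 and 2263121 for imatinib, and 97.5% to 98.5% of them fell in genes. Globin genes took 0.516% and 0.443% of the gene pairs in DMSO and 1.64% and 1.55% after imatinib. Of the erythroid markers, 6 of 8 rose and 0 fell after imatinib (edgeR's quasi-likelihood test, with 8.90% of all genes tested called higher and 6.06% lower), with a summed level of 655 to 673 CPM (read pairs per 1000000 pairs in genes, scaled between libraries by TMM factors) in DMSO and 2413 to 3229 after imatinib. Megakaryocyte markers summed to between 0.907 and 4.52 CPM in the 4 libraries, with PPBP, GP9 and GP1BA among those at 0. Monocyte markers summed to 110 and 132 in DMSO and to 35.7 and 113 after imatinib, nearly all from LYZ, and CD14 was at 0. Lymphocyte markers summed to 81.3 to 91.2 in DMSO and 16.3 to 19.4 after imatinib, with CD3E and MS4A1 at 0. Their part in the results below was not tested, and in bulk RNA a change in the number of cells that make a transcript and a change in RNA per cell cannot be told apart.

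The most used start of HBZ lay at position 152855 of chromosome 16 (genome build hg38), 211 bp downstream of the annotated start of its canonical transcript at 152644, inside annotated exon 1. HBE1 and HBG2 started most often exactly at their annotated starts, 5269945 and 5254781 of chromosome 11. The 110 bases before these starts are shown because they place core promoter letters against measured starts, and those of HBG1 because its start cannot be told from that of HBG2. Capitals mark the letters CCAAT, found in the CCAAT box, and the letters CACCC, found in the box that KLF1 binds at globin promoters. They also mark GATAA and 3 spellings taken as TATA-like: TATAA is the first, ATAAAA is the second and CATAAA is the third, and a match of one can overlap a match of another. Each was searched on both strands, so a capital run can be the reverse complement. The sequences come from hg38 at chr16:152745-152854 (plus strand), chr11:5269946-5270055, chr11:5254782-5254891 and chr11:5249858-5249967 (minus strand).
HBZ: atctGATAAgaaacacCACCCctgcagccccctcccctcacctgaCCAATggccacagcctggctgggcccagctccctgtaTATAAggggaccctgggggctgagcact
HBE1: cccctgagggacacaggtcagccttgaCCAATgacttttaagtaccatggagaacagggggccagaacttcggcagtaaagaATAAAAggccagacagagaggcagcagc
HBG2: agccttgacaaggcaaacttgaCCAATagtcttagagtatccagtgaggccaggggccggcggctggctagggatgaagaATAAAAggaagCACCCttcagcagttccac
HBG1: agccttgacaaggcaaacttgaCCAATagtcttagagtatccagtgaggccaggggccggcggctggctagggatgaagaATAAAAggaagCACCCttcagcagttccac
The TATAA letters of HBZ stood at -28 to -24 from the measured start, whereas the 110 bases before its annotated start held 0 TATA-like, 0 CCAAT and 0 GATAA matches and 1 CACCC match. TATA-like letters were in the 110 bases before the start of 9 globin genes, all but HBQ1, against 15.5% of 35116 RefSeq promoters. CCAAT was in 7 (19.3% of RefSeq promoters), CACCC in 5 (31.3%) and GATAA in 3 (8.80%). The globin windows ended at the most used start, or at the annotated start for HBM, HBA1 and HBG1. The RefSeq windows ended at a fixed reference position, so the shares are not fully alike. The near-identical windows of HBG2 and HBG1, and of HBA2 and HBA1, were each counted. In HBG2 and HBG1 the CACCC letters stood at -19 to -15, downstream of the TATA-like letters at -30 to -25. All of these matches describe the letters. They do not show that a match is the named box or that a factor binds there.

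HBG2 was the most abundant of the globin genes. Its level was 2666 and 2131 CPM in DMSO and 5014 and 6052 after imatinib, and it ranked 1 of 21597 genes by the mean of the 4 libraries. HBZ held 1275 and 986 in DMSO and 6108 and 5311 after imatinib (rank 4), and HBE1 held 1321 and 1075 in DMSO and 3430 and 3498 after imatinib (rank 29). A molecule gives 1 pair whatever its length, so these levels need no scaling by length, though how evenly molecules of different genes were captured and mapped was not tested. On this CPM scale the order in DMSO was HBG2, then HBE1 and HBZ, whose values overlapped, and after imatinib HBZ and HBG2 overlapped while HBE1 was below both.

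The other globin genes were far lower. HBA2, which encodes the adult alpha chain, had 94.7 and 59.9 CPM in DMSO and 328 and 302 after imatinib. HBD, the delta chain gene, had 74.1 and 51.3 in DMSO and 198 and 222 after imatinib, and HBQ1, the theta gene, had 56.5 and 53.9 in DMSO and 182 and 111 after imatinib. In each of these the lowest imatinib library was above the highest DMSO library. How many of all genes did the same was not counted. HBG1 had 27.1 and 21.0 in DMSO and 98.3 and 131 after imatinib, and HBA1 had 2.94 and 2.35 in DMSO and 12.7 and 8.61 after imatinib, in both cases with most pairs starting inside the gene, as described below. HBB, the adult beta chain gene, was low throughout, with 30 and 6 read pairs in DMSO and 115 and 25 after imatinib, or 8.82, 1.18, 26.0 and 11.3 CPM. HBM had 0 read pairs in both DMSO libraries and 7 and 3 after imatinib. A count of 0 allows up to 3 pairs per library by counting error alone, so no fold was taken for HBM.

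**Figure D1:**
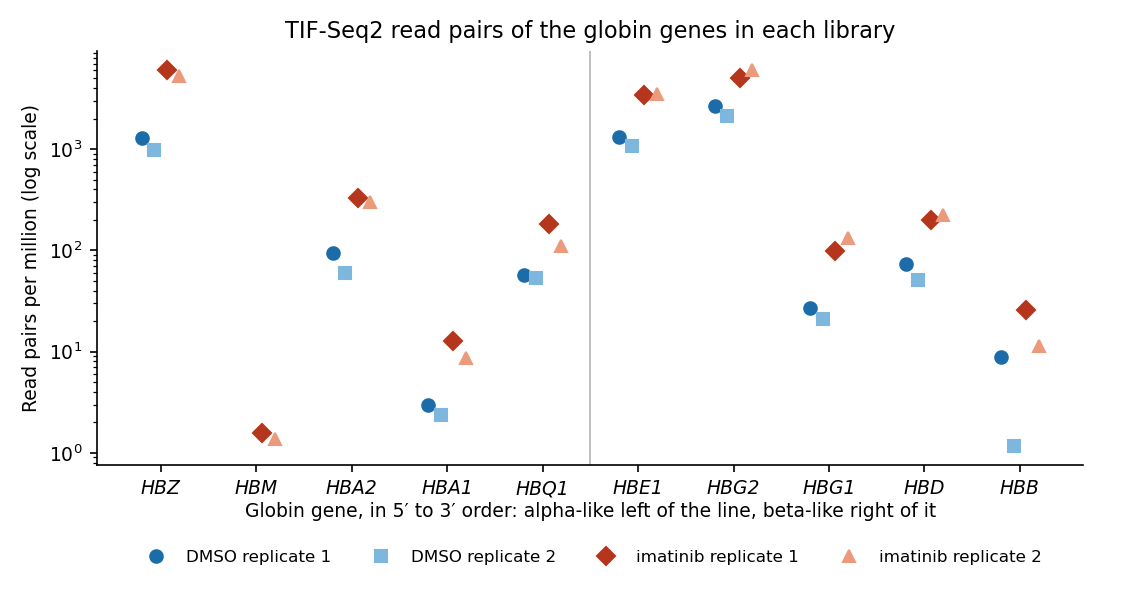
CPM of each globin gene (log axis) in the 4 libraries, alpha-like genes left of the line and beta-like genes right of it. HBG2, HBZ and HBE1 lie near or above 1000, and HBB and HBA1 at 26.0 or less. Where a gene has points of both groups, the imatinib points lie above the DMSO points. How many of all genes show the same was not counted. HBM, at 0 in DMSO, has no DMSO point.

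Of the 9 globin genes that passed the filter on low counts, 8 rose after imatinib and 0 fell (edgeR's quasi-likelihood test, adjusted p under 0.05 by Benjamini-Hochberg over 11331 genes), and HBB did not pass the test. None had a negative fold change, so none was lower at an unadjusted p under 0.05, and DESeq2 called 0 lower. Over all genes tested 8.90% were called higher and 6.06% lower. With a log2 fold change beyond 1.5 also asked, 6 of the 9 rose, against 10.1% of all genes called, 6.76% higher and 3.30% lower. The median log2 fold change of the 9 was 2.03 against 0.031 over all genes, of which 5 in 100 lay above 1.98. HBZ rose by 2.34 ± 0.27 on the log2 scale (SE, n = 2 libraries per group, adjusted p = 0.0024), and 394 of the 11331 genes had a larger value. HBG1 rose by 2.26 ± 0.31 (adjusted p = 0.00389), HBA2 by 2.03 ± 0.30 (adjusted p = 0.00494) and HBA1 by 2.04 ± 0.43 (adjusted p = 0.0167). Of the HBG1 pairs 98.9%, and of the HBA1 pairs 78.4%, began over 100 bp inside the gene. The values of HBG1 and HBA1 therefore describe mostly inner starts and not the whole output of these genes. Smaller rises were fitted for HBD (1.75 ± 0.29, adjusted p = 0.00702), HBE1 (1.53 ± 0.25, adjusted p = 0.00658), HBQ1 (1.41 ± 0.31, adjusted p = 0.0191) and HBG2 (1.21 ± 0.26, adjusted p = 0.0173). The standard errors of neighbours in this order overlapped, and differences between genes were not tested. HBB gave 2.04 ± 0.73 (adjusted p = 0.0938), with the lower DMSO count at 6 pairs. Without DMSO replicate 2, HBZ, HBG1 and HBA2 kept their call in the same edgeR test. HBG2 (1.03, adjusted p = 0.233), HBA1 (1.84, 0.103), HBQ1 (1.35, 0.0987), HBE1 (1.37, 0.0818) and HBD (1.48, 0.0586) lost it there, with positive log2 fold changes and wider standard errors. Without DMSO replicate 1, HBG2 (1.35, 0.0764) and HBQ1 (1.41, 0.0691) lost theirs and HBB gained one (3.95, adjusted p = 1.04e-05), as HBB did without imatinib replicate 2 (2.47, 1.58e-07).

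Alpha-like genes took a larger share of the globin pairs in both imatinib libraries. Whether the change differed between the 2 clusters was not tested. HBG1 and HBA1 entered the sums mostly by inner starts, and how many molecules the cluster totals miss was not tested. The 5 alpha-like genes together made 25.9% and 25.1% of all globin pairs in DMSO and 43.1% and 36.6% after imatinib. The summed alpha-like genes rose from 1430 and 1102 to 6632 and 5735 CPM, by 2.29 ± 0.27 on the log2 scale (edgeR, adjusted p = 0.00222). The summed beta-like genes rose from 4097 and 3280 to 8766 and 9915, by 1.34 ± 0.25 (edgeR, adjusted p = 0.0106; without DMSO replicate 2, 1.17 and adjusted p = 0.146). HBZ alone went from 23.1% and 22.5% to 39.7% and 33.9% of globin pairs, and HBG2 from 48.2% and 48.6% to 32.6% and 38.7%. HBE1 went from 23.9% and 24.5% to 22.3% and 22.4%. The groups did not overlap for any of the 3, but shares of 2 against 2 libraries cannot reach p under 0.05 in an exact permutation test, and these shares sum to a whole, so a rise of one lowers the others.

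**Figure D2:**
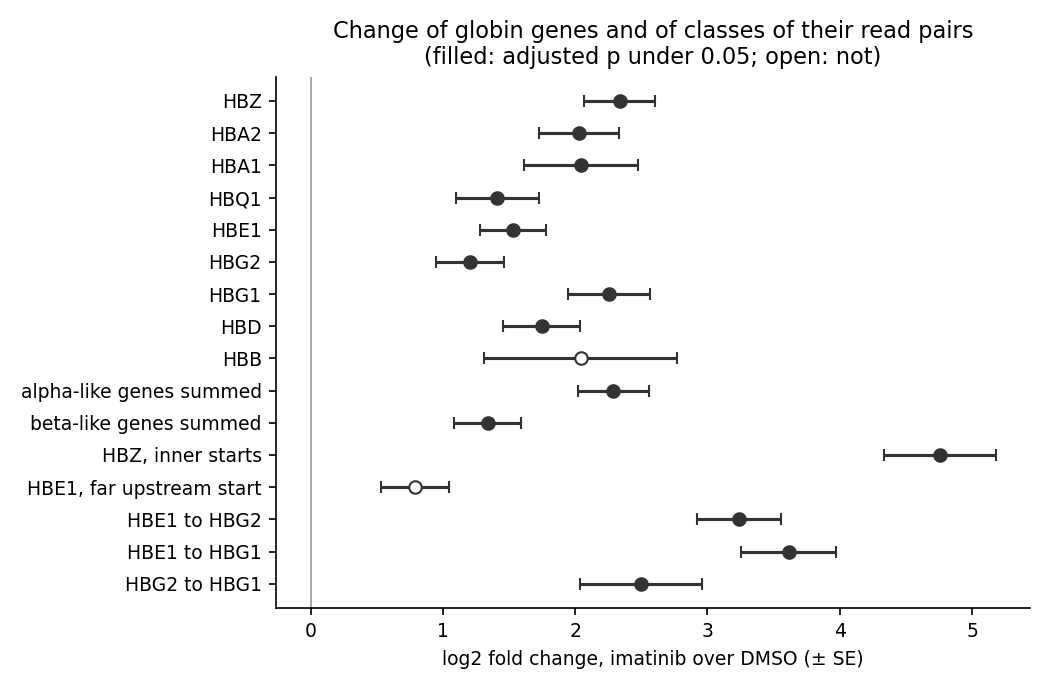
Log2 fold change of imatinib over DMSO with its standard error for the 9 globin genes tested, the summed clusters and classes of their read pairs (filled, adjusted p under 0.05; open, not). HBZ pairs with an inner start changed most among the rows drawn, at 4.76, and HBB and the far upstream start of HBE1 are the open points.

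Transcripts of HBZ started in a narrow place and ended in a narrower one. Of its pairs, 81.3% and 79.7% in DMSO and 65.1% and 77.3% after imatinib began within 10 bp of 152855, and 7.81% to 12.5% began within 100 bp of the annotated start. The lower share at the main start after imatinib went with more starts further inside the gene. Starts over 1 kb downstream of 152855 made 83 and 94 pairs in DMSO and 3426 and 834 after imatinib, which was 1.91%, 1.87%, 12.7% and 7.12% of the pairs of HBZ. These pairs rose by 4.76 ± 0.42 on the log2 scale when set as a row in the gene fit (edgeR, adjusted p = 0.000971). Isoforms could pass the filter on low counts through their imatinib pairs alone. The HBZ isoform starting at 152991, for example, had 0 and 0 pairs in DMSO and 32 and 12 after imatinib. Against the whole gene, 7 HBZ isoforms with starts between 152914 and 154093 rose in use (edgeR's test of isoform use within genes, Benjamini-Hochberg adjusted p under 0.05), each ending at the main 3′ end, while of the 13674 isoforms tested over all genes 1.70% were called, 0.673% higher and 1.03% lower in use. This count fell to 0 when either DMSO library was left out, and to 3 without imatinib replicate 1.

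Inner starts were also more frequent after imatinib in the other globin genes with enough pairs. The share of starts over 100 bp downstream of the most used start was 3.11% and 3.08% in DMSO and 15.7% and 9.22% after imatinib for HBZ, and 5.26% and 5.90% in DMSO and 13.5% and 11.9% after imatinib for HBG2. HBA2 had 0.932% and 1.31% in DMSO and 7.18% and 5.70% after imatinib, HBE1 had 2.09% and 2.40% in DMSO and 5.80% and 4.15% after imatinib, and HBD had few, with 2 and 0 pairs in DMSO and 11 and 6 (1.26% and 1.22%) after imatinib. All 5 globin genes with at least 200 pairs in every library had both imatinib values above both DMSO values, as did 26.8% of the 2070 genes with that many pairs, while 16.0% had both below. The difference of the group means was 9.37 percentage points for HBZ, with 40 of the 2070 genes above it, and 7.12 points for HBG2, with 67 above. Over all 2070 genes the median was 0.232, and 5 in 100 lay above 5.53. The other 3 globin genes were below that value: HBA2 at 5.32 (109 genes above), HBE1 at 2.73 (293) and HBD at 0.844 (730). The inner starts lay mostly in exons. For HBZ, 87.6% of 5615 inner starts were in exons, which cover 31.5% of that stretch, with 547 in exon 1, 2595 in exon 2, 1778 in exon 3 and 695 in introns. By library the exon share was 71.9% and 65.8% in DMSO and 90.0% and 83.3% after imatinib. For HBG2, 87.2% of 5693 inner starts were in exons (32.6% of the stretch), for HBE1 93.6% of 1425 (34.9%), and for HBA2 98.7% of 149 (64.9%).

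**Figure D3:**
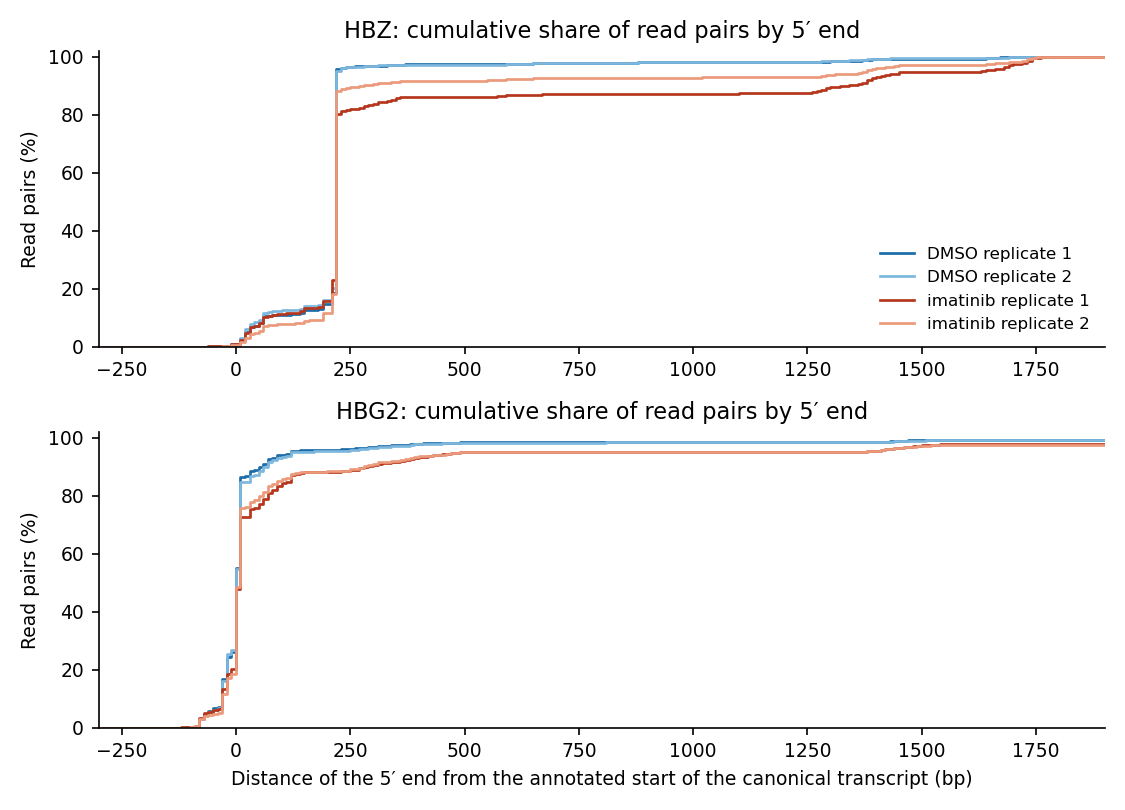
Cumulative share of the read pairs of HBZ (top) and HBG2 (bottom) by the distance of the 5′ end from the annotated start, one line per library. HBZ climbs mostly at 211 bp and HBG2 at 0 bp, and the imatinib lines reach the top later than the DMSO lines because 15.7% and 9.22% (HBZ) and 13.5% and 11.9% (HBG2) of their starts lie over 100 bp further in.

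HBM, whose product is not known as a haemoglobin chain, shows how the annotation can lend one globin gene the counts of another. Gencode v44 draws the HBM body from 153892, the first base of exon 2 of HBZ, to 166764. When a pair was counted for every body that held it, HBM had 151 and 182 pairs in DMSO and 4919 and 1240 after imatinib, and by nearest transcript 10 pairs remained in all. None of those 10 began within 100 bp of the start of the canonical HBM transcript at 165978. The same choice made HBG2 14116, 17323, 37969 and 21339 pairs instead of 9066, 10880, 22180 and 13351, because its annotated body reaches upstream across HBE1, to 5505605.

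HBE1 had a second start far upstream. A start at 5505652, 235.7 kb before the start of the canonical transcript and the first base of the longest annotated HBE1 transcript, gave 555 and 683 of its pairs in DMSO and 1110 and 577 after imatinib. That was 12.4% and 12.4% of the pairs of HBE1 in DMSO and 7.32% and 7.48% after imatinib, so the shares of the groups did not overlap. For how many of all genes the share of a second start separates in this way was not counted. The level of these pairs did not pass the test, with 163 and 134 CPM in DMSO, 251 and 262 after imatinib and a log2 fold change of 0.79 ± 0.26 (edgeR, adjusted p = 0.0704). It passed without imatinib replicate 1 (adjusted p = 0.0241) or imatinib replicate 2 (0.0476). The use of the far-start isoform relative to the others of HBE1 gave a relative log2 fold change of -0.60 (edgeR, adjusted p = 0.332). Of all 5107 pairs from this start, 2347 (46.0%) ended within 1 kb of the canonical HBE1 transcript, 150 in HBG2, 1 in HBG1 and 2609 (51.1%) elsewhere. The ends near the canonical HBE1 transcript numbered 483 and 534 in DMSO and 858 and 472 after imatinib. Those are fewer than the far-start pairs counted for HBE1, so the shares above include ends elsewhere in its annotated body. At the canonical start, 75.7% of the pairs of HBE1, as the mean of the 4 libraries, began within 10 bp of 5269945.

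The 3′ ends of the globin genes lay within a few bases of the annotated ones. The last 30 bases are shown for the genes with most pairs and for HBQ1, which has another hexamer, with the poly(A) signal AATAAA or AGTAAA in capitals. They lie at chr16:154472-154501 and chr16:181149-181178 (plus strand) and at chr11:5268350-5268379 and chr11:5253191-5253220 (minus strand) of hg38.
HBZ: ccgcgtaatgcgccAATAAAccaatgaacg
HBQ1: ccgtgtttgAGTAAAgcctctcccaggagc
HBE1: gtttAATAAAgtacattttcttcagtaatc
HBG2: aatAATAAAtctattctgctaagagatcac
AATAAA stood in the last 30 bases of all 9 genes other than HBQ1. The share of pairs ending within 10 bp of the most used end was 95.6% for HBZ and 95.3% for HBE1 as means of the 4 libraries. At HBE1, 25.4% of pairs ended where at least 7 of the next 10 genomic bases are A, the mark by which the study set aside ends that oligo(dT) could have primed inside a transcript, and its second most used end, 5268354 with 5792 pairs, was one of them. HBD had a further end at 5232508, 330 bp past the annotated one. It took 2.78% and 3.05% of HBD pairs in DMSO and 9.83% and 7.55% after imatinib, so its share was higher in both imatinib libraries. For how many of all genes the share of a further end separates in this way was not counted. In HBG2 a further end 183 bp past the annotated one took 0.188%, 0.202%, 0.491% and 0.202% of pairs, with only imatinib replicate 1 apart. Pairs that began in HBA2 and ended near 174762, 1052 bp past its end, numbered 0 and 2 in DMSO and 26 and 12 after imatinib.

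Isoforms were rebuilt as pairs of a start cluster and an end cluster joined by at least 4 read pairs. Of 33887 isoforms, 65 belonged to globin genes and 50 passed the filter, of which 47 rose and 0 fell (edgeR, adjusted p under 0.05 over 15477 isoforms), with 6.58% of all tested isoforms called higher and 4.96% lower. None of the 50 had a negative fold change, and DESeq2 called 35 higher and 0 lower. By gene, 20 of 20 tested isoforms rose in HBZ, 11 of 11 in HBG2, 6 of 7 in HBE1 and 5 of 6 in HBD. In HBA2 3 of 3 rose and in HBQ1 2 of 2, and the 1 of HBB did not pass. An isoform could pass the filter on its imatinib pairs alone, and such an isoform could hardly be called lower. These counts are therefore partly set by the filter, which was the same for all isoforms. Without DMSO replicate 2 the count of 47 was 25. The HBD isoform ending at 5232508 rose by 3.74 ± 0.51 on the log2 scale, with 4 and 5 pairs in DMSO and 61 and 27 after imatinib, and the main HBD isoform by 2.00 ± 0.32, from 119 and 114 to 431 and 237 pairs (edgeR, adjusted p = 0.00367 and 0.00664). Their use within the gene did not pass the test (relative log2 fold change 1.20, adjusted p = 0.154 for the longer one).

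Some pairs began in one globin gene and ended in the next. Of the starts within 1 kb of HBE1, 36 of 3972 and 61 of 4862 in DMSO ended in HBG2, 16.8 kb downstream, against 411 of 14756 and 268 of 7560 after imatinib. That was 0.906% (95% Wilson interval 0.655% to 1.25%) and 1.25% (0.978% to 1.61%) in DMSO, and 2.79% (2.53% to 3.06%) and 3.54% (3.15% to 3.99%) after imatinib, and the intervals, which cover counting error only, did not overlap between the groups. A further 0.327% and 0.535% in DMSO and 1.44% and 1.87% after imatinib ended in HBG1. Pairs from HBE1 into HBG2 rose by 3.24 ± 0.32 and those into HBG1 by 3.61 ± 0.36 on the log2 scale (edgeR, adjusted p = 0.00143 for both). HBE1 starts ended in HBD in 6 pairs and in HBB in 2. From HBG2, 15 and 9 pairs in DMSO and 74 and 37 after imatinib ended in HBG1, a rise of 2.50 ± 0.46 (edgeR, adjusted p = 0.00996), which was 0.083% to 0.338% of its starts.

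The same kind of joined pair was found between genes too far apart for one transcript. For 20 protein-coding genes with at least 5000 starts, all on the same strand and over 1 Mb upstream, 0.124% and 0.166% of starts in DMSO and 0.534% and 0.468% after imatinib ended in HBG2 or HBG1. By gene, over the 4 libraries together, the share ran from 0% to 0.768% with a median of 0.133%. HBE1 lay above each of them in every library, with 1.23%, 1.79%, 4.22% and 5.41%, and the distant genes also had a higher share after imatinib, when HBG2 and HBG1 themselves were more abundant. How much of the joined signal from HBE1 this distant level makes up was not tested.

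**Figure D4:**
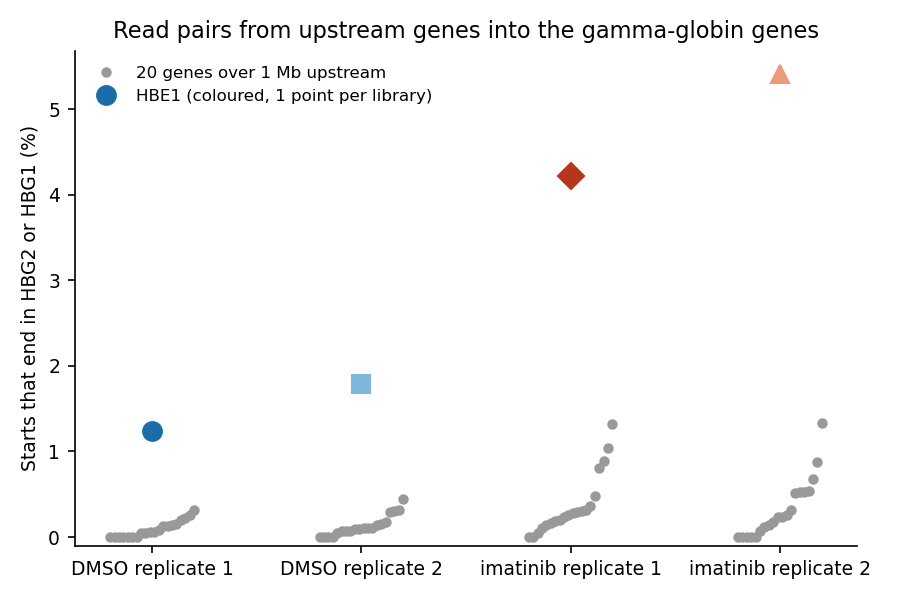
Share of the starts of an upstream gene that ended in HBG2 or HBG1, by library, for HBE1 (coloured) and for 20 genes over 1 Mb upstream on the same strand (grey). HBE1 is above the grey points in all 4 libraries, and both HBE1 and the pooled distant genes (0.124% and 0.166%, then 0.534% and 0.468%) are higher after imatinib.

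In the alpha-like cluster joined pairs were fewer. HBZ starts ended in HBA2 in 2 and 0 pairs in DMSO and 30 and 11 after imatinib, and in HBA1 in 0 and 2 pairs in DMSO and 41 and 5 after imatinib. Together with HBM and HBQ1 this was 0.046% and 0.039% of the HBZ starts in DMSO and 0.272% and 0.160% after imatinib. Pairs from HBZ to places over 2 Mb away were more frequent than that, with 26 and 53 in DMSO and 680 and 128 after imatinib, among them 53 and 16 after imatinib into RPL13, a ribosomal protein gene. HBA2 starts ended in HBA1 in 1, 4, 17 and 9 pairs, or 0.310%, 1.27%, 1.13% and 1.29%, so these shares overlapped between the groups.

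Because only uniquely mapped pairs were kept, the likeness of the copies bears on their counts. The first bases of the transcripts are shown because they are what a 5′ read must place. They are 30 bases from chr11:5254752-5254781 and chr11:5249828-5249857 (minus strand) and from chr16:172876-172905 and chr16:176680-176709 (plus strand) of hg38, in lower case with nothing marked.
HBG2: acactcgcttctggaacgtctgaggttatc
HBG1: acactcgcttctggaacgtctgaggttatc
HBA2: actcttctggtccccacagactcagagaga
HBA1: actcttctggtccccacagactcagagaga
From the start, HBG2 and HBG1 are the same for 279 bases of transcript and HBA2 and HBA1 for 480, and the first 68 bases of each match the genome at 2 places. The last 60 bases match at 1 place in all 10 genes, with 39 of 60 the same between HBG2 and HBG1 and 45 of 60 between HBA2 and HBA1. So a 3′ end names its copy, and a 5′ end at the cap does not on its own sequence. HBG2 had 48659 pairs within 100 bp of its annotated start and HBG1 had 0, and 98.9% of the HBG1 pairs began over 100 bp inside the gene, 98.2% of its 907 inner starts being in exons and none in exon 1. Of the HBA1 pairs, 6 of 10 and 6 of 12 in DMSO and 6 of 56 and 2 of 19 after imatinib began within 100 bp of its start, and nearly all others inside the gene.

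The 3′ ends that went with these starts were uneven. Of the pairs that began within 20 bp of the HBG2 start, 30 ended in HBG1 and 32010 in HBG2, or 0.094% in HBG1. Of those that began in HBE1, whose start is unlike either copy, 392 ended in HBG1 and 776 in HBG2, or 33.6% (95% Wilson interval 30.9% to 36.3%), and of those from over 1 Mb upstream 431 and 1016, or 29.8% (27.5% to 32.2%). By library the share from HBE1 ran from 26.5% to 34.5%. In the alpha-like pair, 30 of the pairs from the HBA2 start ended in HBA1 and 2409 in HBA2, or 1.23%, while of those from HBZ 48 ended in HBA1 and 43 in HBA2, or 52.7% (42.6% to 62.7%). Imatinib replicate 1 gave 41 of these 48 and 30 of these 43, the share by library ran from 0% to 100%, and without imatinib replicate 1 it was 35% of 20 pairs. Every deposited pair had its 3′ end downstream of its 5′ end. For a 3′ end in HBG2 or HBA2, only 1 of the 2 possible starts lies upstream, and for one in HBG1 or HBA1 both do. Whether the mapping used that order was not tested. How far the levels of these 4 genes miss molecules for this reason was not tested. The pairs counted for HBG1 and HBA1 came mostly from inner starts, which were more frequent after imatinib in HBG2 and HBA2 as well.

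**Figure D5:**
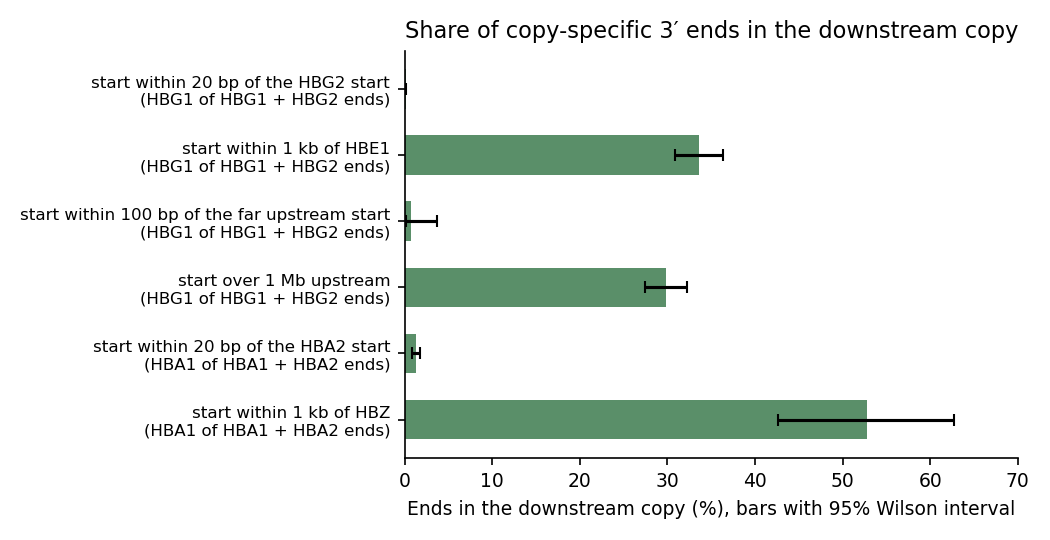
Share of 3′ ends in the downstream copy (HBG1 of HBG1 and HBG2, or HBA1 of HBA1 and HBA2) by where the 5′ end lay, over the 4 libraries together, with 95% Wilson intervals. Starts at the caps of HBG2 and HBA2 reached the downstream copy in 0.094% and 1.23% of pairs, and starts in HBE1 or HBZ in 33.6% and 52.7%, the last resting on imatinib replicate 1 (35% of 20 pairs without it).

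HBD, the delta gene, and HBB, the beta gene, differ enough for their starts to be placed, with 64 of their first 68 bases the same. HBD began within 10 bp of 5234483 in 53.4% of its pairs and HBB within 10 bp of 5227071 in 94.8%, as means of the 4 libraries. A small part of the HBD pairs began in the pseudogene HBBP1 upstream, 10, 10, 31 and 22 pairs, which was 3.54% to 4.49% of HBD pairs with overlap between the groups.

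The genes that work with or on the globins did not all move together. Of 15 genes for haem synthesis and globin assembly, all tested, 11 rose and 0 fell, against 8.90% and 6.06% of all genes tested, with a median log2 fold change of 2.25. ALAS1, the housekeeping counterpart of ALAS2, alone had a negative fold change and is named here after its values were seen (-0.83 ± 0.34, edgeR adjusted p = 0.136). ALAS2, the erythroid first enzyme of haem synthesis, went from 27.6 and 31.1 to 474 and 408 CPM (3.90 ± 0.28 on the log2 scale, edgeR adjusted p = 0.00106). AHSP, the chaperone of free alpha chains, went from 50.9 and 50.9 to 808 and 292 (3.44 ± 0.46, adjusted p = 0.00376). PPOX, a late enzyme of the pathway, rose by 3.25 ± 0.45 and ALAD, an early one, by 3.09 ± 0.31 (edgeR, adjusted p = 0.00389 and 0.00162).

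Of 22 regulators of globin genes, 20 were tested, 2 rose and 3 fell, against 8.90% and 6.06% of all genes tested, with a median log2 fold change of 0.00. KLF1, an erythroid activator of globin promoters, went from 90.3 and 84.0 to 262 and 236 CPM (1.52 ± 0.26, edgeR adjusted p = 0.00735), and LMO2 rose by 1.38 ± 0.34 (adjusted p = 0.0285). GATA2, the factor of earlier progenitors, fell from 83.5 and 107 to 14.0 and 22.2 (-2.42 ± 0.34, edgeR adjusted p = 0.0041). MYB, the progenitor factor, gave -1.66 ± 0.45 (edgeR, adjusted p = 0.0385). GATA1, the main erythroid factor, had 200 and 267 in DMSO and 241 and 204 after imatinib, with overlap and a log2 fold change of -0.07 ± 0.27 (edgeR adjusted p = 0.891). BCL11A, a repressor of the fetal globin genes, had no read pairs.

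Of 18 genes beside the clusters, 10 were tested, 4 rose and 1 fell, against 8.90% and 6.06% of all genes tested, with a median log2 fold change of 0.90. NPRL3, which holds the distal enhancers of the alpha-like cluster in its introns, had 2.06 and 1.57 CPM in DMSO and 18.5 and 4.99 after imatinib (2.78 ± 0.64, edgeR adjusted p = 0.0229). FAM234A, beside the alpha-like cluster, went from 5.59 and 3.13 to 19.4 and 8.61 CPM (1.77 ± 0.50, edgeR adjusted p = 0.0444). BGLT3, a noncoding RNA between the gamma and delta genes, went from 0.588 and 1.18 to 4.75 and 4.08 CPM (2.23 ± 0.55, edgeR adjusted p = 0.0289). POLR3K, a subunit of RNA polymerase III, fell from 439 and 278 to 135 and 187 CPM (edgeR adjusted p = 0.0394).

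By the root mean square difference of centred log2 levels over the 4 libraries, the genes whose pattern was most like that of all globin genes together were ENSG00000291042 (0.0528), EPRS1, a glutamyl-prolyl-tRNA synthetase (0.0603), and LINC02422 (0.0777). EPRS1 had 105 and 75.6 CPM in DMSO and 276 and 300 after imatinib. With 4 libraries many genes can lie this near, and the likeness is given as a description.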

How the data were processed

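RNA of 2 DMSO and 2 imatinib samples of K562 cells was measured by TIF-Seq2. The deposited tables hold counts that the authors made by trimming with cutadapt 1.16, extracting 8-base molecular identifiers, aligning 5′ and 3′ reads separately to hg38 with STAR 2.5.3a, keeping uniquely mapped pairs on one chromosome, removing PCR duplicates and collapsing pairs to their end positions (tool versions also in the submitters' processing notes). Of these counts, the highest at one position pair was 1110, against 16384 identifiers. The authors' duplicate removal allowed a mismatch in the identifier and a slightly shifted start. How far this lowered the highest counts was not tested. The 3′T-fill libraries and the targeted long-read models were not used here.

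Pairs were assigned to Gencode v44 genes (within 1 kb, nearest transcript ends) and tested in edgeR 4.0.16 (R 4.3.3) with TMM factors, filterByExpr, robust glmQLFit and glmQLFTest, treatment as the only term, and Benjamini-Hochberg adjustment over all features. Levels are CPM, counts per 1000000 pairs in genes with TMM factors. Isoforms were rebuilt after the study's rules and their use tested with diffSpliceDGE. A main site was the window of 10 bp on either side of the most used position, because the single linkage first planned chained through whole genes. Shares have 95% Wilson intervals, which cover counting error only. On simulated counts of 11015 genes for this comparison, 86.6% of changes of log2 2 and 16.7% of log2 1 were called, with 0% false calls, and for 14159 isoforms 80% and 10.6%. The simulation gave every feature the same dispersion and held only 193 changed genes and 175 changed isoforms. Its rates, that of false calls among them, may therefore not hold for the measured libraries. Depth ran from 2263121 to 5135829 pairs. Replicates differed beyond sampling noise (chi-square over its degrees of freedom 6.19 for DMSO, 9.93 for imatinib).

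All 10 globin genes were named whatever their values. From each list of regulators, haem genes, neighbours and cell type markers every member was counted, and at most 4 called members with the largest fold change plus GATA1, KLF1, AHSP and BCL11A were described. The members and lists were chosen with earlier results of these data known. Alternatives were DESeq2 1.42.0, its size factors, other filters, windows and site widths, a replicate block, leaving out each library, and the study's exclusion of 3′ ends with 7 or more A in the next 10 bases. Python was 3.11.15.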

Additional observations from a re-analysis of the deposited data

How the results depend on the processing

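No log2 fold change among the 351 values computed changed sign, and the counts and shares among them have no sign to change. HBZ, HBG1 and HBA2 kept their call in all 15 alternatives each, with log2 fold changes of 2.14 to 2.51, 2.00 to 2.46 and 1.71 to 2.36. The 8 globin genes called higher became 7 with DESeq2 (HBA1, adjusted p = 0.0604), 7 with pairs under 300 bp or over 2 Mb apart left out, where HBA1 was no longer tested, 10 with no filter on low counts, 9 with every window that holds a pair, 6 with a log2 fold change beyond 1.5 also asked, and 3 to 9 when one library was left out (3 without DMSO replicate 2), where a lone library is taken to vary like the other group. Summed beta-like genes gave 1.17 to 1.48 in those fits (edgeR, adjusted p = 0.146 at the lowest), and the far start of HBE1 gave 0.63 to 0.91. The 47 isoforms called higher became 25 to 48 when one library was left out, 27 with tags of at least 4 read pairs and 35 with DESeq2. The 7 isoforms called in use became 0 to 8.

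Replicate numbers are shared by the groups, but nothing says that they mark a shared culture, and the deviations of same-numbered libraries correlated at -0.237. With a replicate block 8 globin genes, 37 isoforms and 3 isoforms in use were called, summed beta-like genes gave 1.35 (edgeR, adjusted p = 0.0771), HBG2 lost its call (0.107) and HBB gained one (0.0211). With the numbers crossed, an alternative chosen after seeing the data, 8 globin genes were called. Over all genes, 1008 called higher became 660 with DESeq2, 502 to 2016 when one library was left out and 1820 with the numbers crossed, and 687 called lower became 1206 with no filter, 410 with the block, 374 beyond a log2 fold change of 1.5, 316 to 1728 when one library was left out and 1656 with the numbers crossed. Leaving out 3′ ends with 7 or more A downstream raised the mean share of HBE1 starts ending in HBG2 to 1.48% in DMSO and 4.10% after imatinib, and in HBG1 to 0.590% and 2.14%, since it removes ends of HBE1 itself. Of 40 site shares under another width or filter, 8 moved by more than the replicate spread and 32 did not. HBB, HBA1 and HBM, with 176, 97 and 10 pairs in all, were too shallow for shares of sites to be compared.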
